A study of Mus musculus with 16 samples.

Results

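Regulatory T cells (Treg, CD4+ FOXP3+) from mice given venetoclax were compared with those from mice given vehicle. The comparison takes in 8 of the 16 libraries of the series, chosen by their labels: 4 from vehicle mice and 4 from mice given venetoclax at 50 mg/kg for 14 days. The other 8 libraries hold conventional CD4+ FOXP3- cells (Tcon) under the same treatments and replicate codes, and were used only to test where the response of Treg differed. All mice were B6.Cg-Foxp3tm2Tch/J, a strain in which an IRES places GFP on the Foxp3 transcript (labelled FOXP3-IRES-GFP), with the genotype given as WT, and cells came from spleen and lymph node. The replicates are described as biological, while age, sex, sort gates, sort days and the number of animals behind each library are unknown here, so p-values measure the spread between these libraries. Values below are normalized read counts, that is reads divided by 1 size factor per library, and are listed in the order of libraries 1 to 4.

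Treg restrain immune responses under the control of the transcription factor FOXP3. In lymphoid tissue they range from resting cells, which keep homing receptors and transcription factors of naive T cells, to effector cells, which carry more inhibitory receptors and receptors for peripheral tissues. Most depend on interleukin 2, which signals through STAT5. Venetoclax is a small molecule that occupies the groove through which the survival protein BCL-2 holds pro-apoptotic partners such as BIM, and lymphocytes differ in how far they rely on BCL-2 or on its relatives MCL-1 and BCL-XL.

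The libraries carried the defining marker of Treg. Foxp3, on chrX:7579676-7595243 of GRCm38.p6, was read at 19359.6, 21126, 18016 and 20857 in vehicle and at 21301, 21223, 21553 and 21363 in venetoclax. All 4 venetoclax libraries lay above the 4 vehicle libraries, yet the change of 0.11 ± 0.06 (log2, ± SE) did not pass the threshold (adjusted p = 0.202). Cd4, which encodes the co-receptor, was at 17961 ± 579 in vehicle and 19662 ± 297 in venetoclax (SD, n = 4 each), a change of 0.13 that missed the threshold as well (adjusted p = 0.0723). Among markers of other cells, no gene of the gamma delta T cell list was in the table and Pax5 and Ighm of B cells were absent from it. The 9 B cell markers that were measured summed to 1576 to 2247 in vehicle and 2244 to 2783 in venetoclax, mostly from Cd74, the invariant chain of MHC class II, which rose by 0.53 ± 0.12 (adjusted p = 0.0101). Cd22 of the same list was called higher too, and the list median was 0.44. Of these 2 rises Cd74 alone was called in every fit that leaves out 1 library. The sum of 4 measured erythroid markers ran from 33.1 to 554 in vehicle and from 20.3 to 1343 in venetoclax, highest in the library numbered 4 of each group. Without the libraries numbered 4, 1645 genes passed the test, of which 1498 were also called with all libraries. The part of B cells in the results was not tested.

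Assigned reads ran from 21335006 to 25027038 per library over 11067 genes. Taken over all genes together, libraries of 1 group differed by more than counting noise (chi-square per degree of freedom 7.3 to 21.9). The part of counting noise in genes with few reads was not separated. The first principal component held 44.8% of the variance and separated the treatments (vehicle -19.9 to -3.9, venetoclax 8.5 to 15.5). The Y-linked genes Ddx3y and Kdm5d were read in vehicle library 2 (mean log2 11.76) and in venetoclax libraries 1, 2 and 3 (10.14, 11.74 and 10.77). They were near 0 in the other 4 (at most 0.49). Libraries with these reads were not matched in level, which was lower in venetoclax libraries 1 and 3 than in vehicle library 2. Presence of these genes was thus uneven between treatments, in 1 of 4 vehicle and 3 of 4 venetoclax libraries. Differences are therefore also given within the 4 libraries without them (vehicle 1, 3 and 4 against venetoclax 4) and the 4 with them (vehicle 2 against venetoclax 1, 2 and 3). With a covariate for Y-linked reads 1597 genes passed the test described next, of which 1416 were among the 2164 called without it.

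Of 11067 genes, 2164 (19.6%) passed the test, limma on log2(normalized count + 1) with a Benjamini-Hochberg adjusted p under 0.05. Of these, 1189 were higher in venetoclax (10.7% of genes tested) and 975 were lower (8.81%). Most changes were small: the median size among called genes was 0.324 on the log2 scale, and 67 genes rose and 41 fell by more than 2-fold. Under upper quartile scaling 969 were higher and 1348 lower, so that 41.8% of calls were higher against 54.9% under the deposited scaling, while the median of all genes moved from 0.005 to -0.025. The call was kept in the full fit and in each of the 8 fits that leave out 1 library by 1118 genes (10.1%), 651 higher and 467 lower. Leaving out vehicle library 3 or venetoclax library 1 lowered the count of called genes to 1419 and 1327. In 12% of genes all venetoclax libraries lay above all vehicle libraries, and in 10.7% all lay below. In bulk libraries more cells with a transcript and more transcript per cell cannot be told apart.

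Genes of effector Treg were higher in venetoclax libraries. Of 34 listed genes 32 were measured, and 22 rose and none fell, each of the 22 also in all fits that leave out 1 library, with a list median of 0.54 against 0.005 for all genes. Together the listed genes took 0.341 to 0.403% of counts in the vehicle libraries and 0.506 to 0.601% in the venetoclax libraries, so the groups did not overlap. Il1rl1, on chr1:40404864-40465418, encodes ST2, the receptor of the alarmin interleukin 33. It was read at 416, 366, 292 and 503 in vehicle and at 1025, 702, 781 and 1200.2 in venetoclax, a 2.34-fold rise (log2 1.23 ± 0.17, adjusted p = 0.000518). Klrg1, an inhibitory receptor of terminally differentiated Treg, went from 651, 478, 406 and 725 to 1062, 1014, 1143 and 1504 (log2 1.08 ± 0.16, adjusted p = 0.000815). Neither gene overlapped between the groups, and both were highest in venetoclax library 4. Pdcd1, which encodes the inhibitory receptor PD-1, stood at 1414, 1222, 1220.0 and 1359 in vehicle against 2424, 2191, 2529 and 2745 in venetoclax (log2 0.92 ± 0.07, adjusted p = 2.85e-05). The transcription factor gene Maf was at 3222, 3285, 2210.1 and 2931 against 5571, 5431, 5170.2 and 5499, a 1.88-fold rise (log2 0.91 ± 0.10, adjusted p = 0.000119). Both genes were close to even among the venetoclax libraries, and vehicle library 3 held the lowest value of each of these 4 genes. Rises were also called for the inhibitory receptor gene Tigit (0.77), the costimulatory receptor gene Icos (0.50), the transcriptional repressor gene Prdm1 (0.58) and S100a4 (0.70), a calcium-binding protein of memory-type cells. Il10, an inhibitory cytokine gene of the same list, did not pass: it was read at 119.7, 181, 89.6 and 229.9 in vehicle and 174, 197, 191 and 154 in venetoclax (log2 0.29 ± 0.23, adjusted p = 0.396). Within the libraries without and with Y-linked reads the list median was 0.65 and 0.47.

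**Figure D1:**
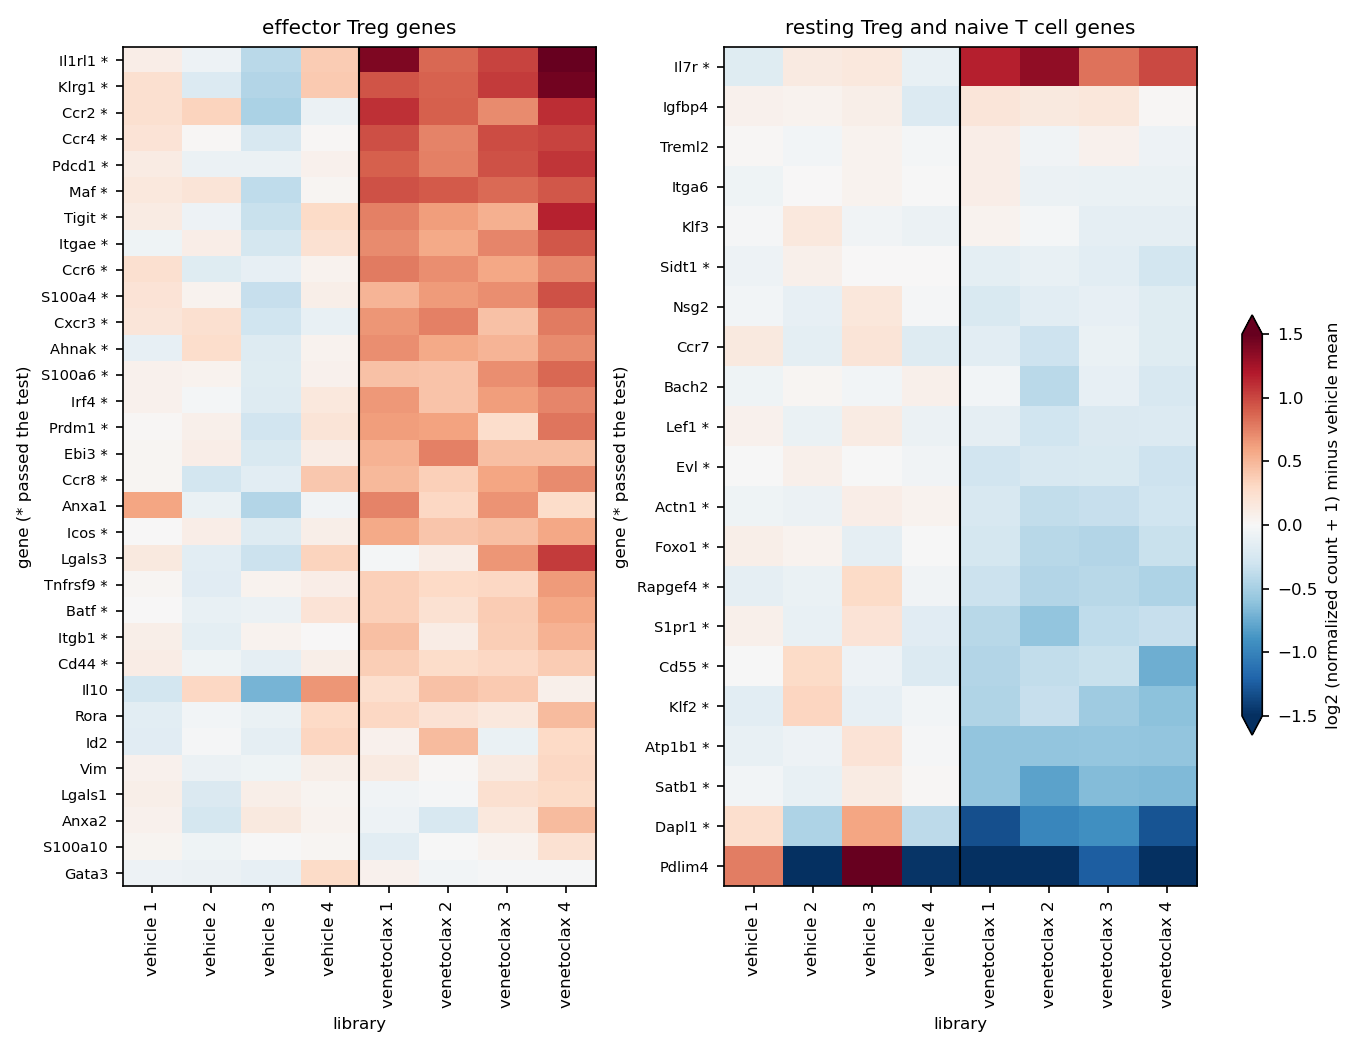
Level of each measured gene of the effector list (left, 32 genes) and of the resting and naive list (right, 21 of the 22 genes) in the 8 Treg libraries, as log2(normalized count + 1) minus the mean of the 4 vehicle libraries, with colours capped at 1.5 in either direction and an asterisk for genes that passed the test. The 22 effector genes that passed are higher in venetoclax, and of the 13 resting genes shown that passed 12 are lower and Il7r is higher.

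The broader list of Treg surface and suppressor genes moved in the same direction, and it shares members with the effector list. Of 35 listed genes 34 were measured, of which 24 rose and none fell (median 0.37), 20 of them in every fit that leaves out 1 library. In Tcon 9 of the 31 list genes measured there rose and none fell (median 0.43). The difference between Treg and Tcon passed for 3 of them, or 6 with the replicate code as a block. Il2rb, on chr15:78479256-78511621, encodes the signalling chain shared by the receptors of interleukins 2 and 15. Its counts were 25046, 25660.2, 25497 and 26824 in vehicle and 42705, 40591, 38355 and 36310.5 in venetoclax (log2 0.61 ± 0.06, adjusted p = 0.000102), with a gap between the groups wider than the range of either. Nt5e encodes CD73, the ectoenzyme that makes adenosine, and rose from 6711 ± 610.3 to 10281 ± 379 (log2 0.62 ± 0.06, adjusted p = 0.000102). Itgb8, a chain of the integrin that activates latent TGF-beta, rose from 506 ± 50.5 to 836 ± 62.9 (log2 0.72 ± 0.08, adjusted p = 0.00016). For both genes all 4 venetoclax libraries lay above the vehicle libraries. Genes that are central to Treg identity did not pass: Il2ra, the high-affinity interleukin 2 receptor chain CD25, was at 24952 ± 957 against 25370.0 ± 1311 (log2 0.02 ± 0.06, adjusted p = 0.81), and Ctla4, the inhibitory receptor that removes costimulatory ligands, was at 12586 ± 1464 against 13949 ± 1309 (log2 0.15 ± 0.08, adjusted p = 0.223).

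Genes of resting Treg and naive T cells were lower, with 1 exception. Of 25 listed genes 22 were measured; 13 fell and 1 rose (median -0.27), and 10 of the falls were called in every fit that leaves out 1 library. Satb1, a chromatin organiser of thymocytes and naive T cells, was read at 9253, 8817, 10403 and 9665 in vehicle and 6339, 5453, 6069 and 5992 in venetoclax (log2 -0.68 ± 0.06, adjusted p = 7.15e-05). The groups were apart, and library 2 was the lowest of each. Foxo1, the transcription factor that sustains homing receptors in resting T cells, was at 11764, 11494, 10117 and 11028 against 9218, 8337, 8183 and 8819 (log2 -0.36 ± 0.06, adjusted p = 0.00122). Klf2, which drives S1pr1, fell by 1.40-fold (log2 -0.49 ± 0.09, adjusted p = 0.00295). S1pr1, the receptor for lymphoid egress, fell by 1.35-fold (log2 -0.43 ± 0.08, adjusted p = 0.00271). Atp1b1, a sodium pump subunit, was even among the venetoclax libraries at 932, 930.0, 933 and 928 against 1298, 1325, 1616 and 1380.5 in vehicle (log2 -0.59 ± 0.07, adjusted p = 0.00017). The exception was Il7r, described with the cytokine receptors. Within the libraries without and with Y-linked reads the list median was -0.30 and -0.22.

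**Figure D2:**
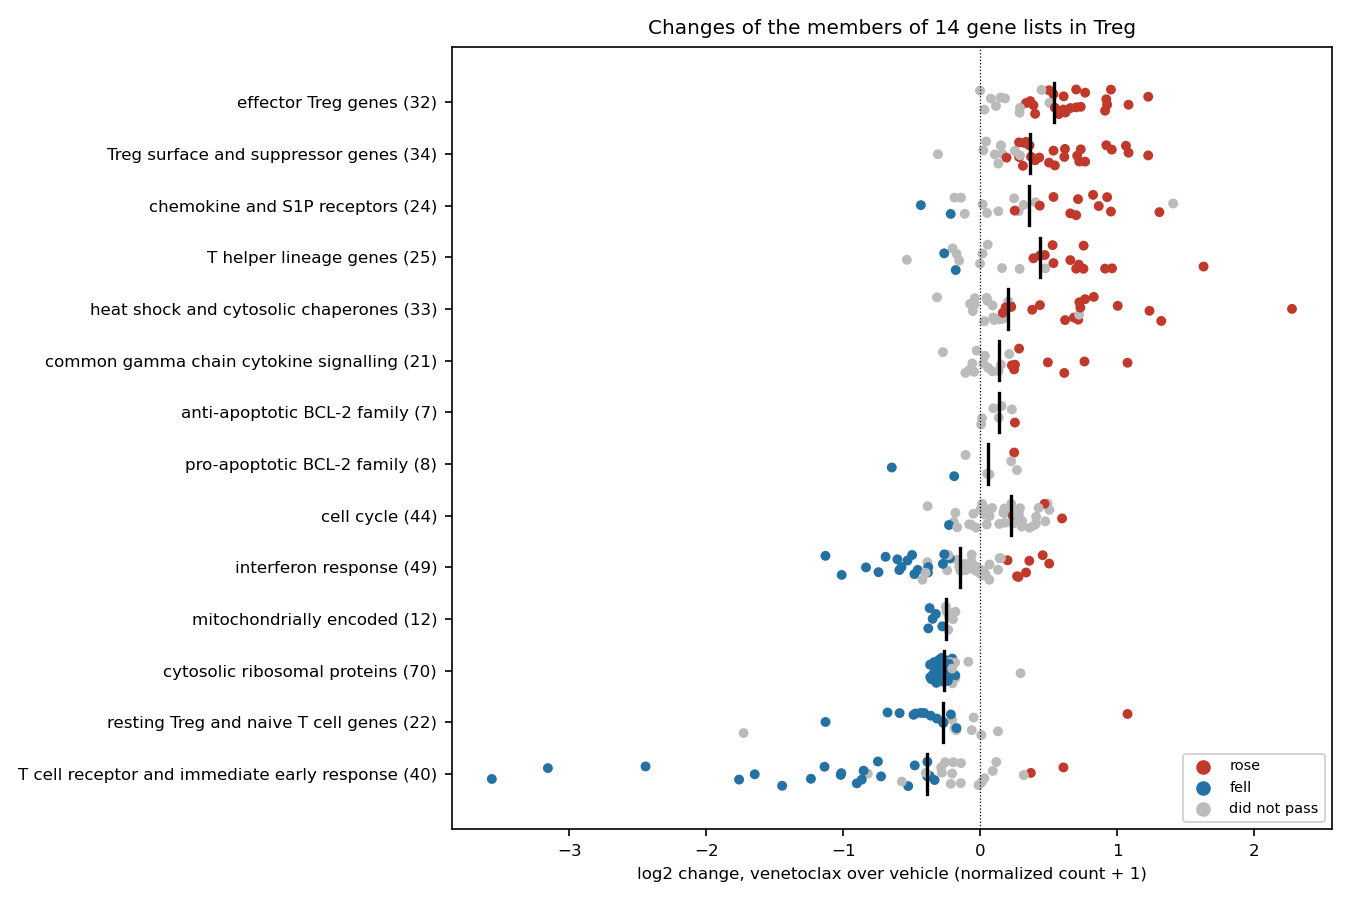
Log2 change of every measured member of 14 gene lists in Treg, venetoclax over vehicle, with the number of measured members in brackets, red for genes that rose, blue for genes that fell, grey for genes that did not pass, and a black bar at the list median. Effector genes lie mostly to the right (median 0.54) and immediate early genes mostly to the left (median -0.39).

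Transcription factors of Treg and of helper lineages changed in part. Among 31 measured Treg transcription factor genes 10 rose and 4 fell (median 0.06), 6 and 2 of them in every fit that leaves out 1 library. The count of falls was 2 without vehicle library 1 or vehicle library 3 or venetoclax library 2. Over all genes 10.7% were higher and 8.81% lower, so the falls here and in the helper lineages below were near that share. Irf4, a factor required for effector Treg, went from 2335, 2179, 1952 and 2497 to 3516, 2992, 3439 and 3701 (log2 0.61 ± 0.08, adjusted p = 0.000313). The groups of Irf4 did not overlap. Ikzf2, which encodes Helios, rose from 22739 ± 2229 to 27825 ± 2151 with overlap between the groups (log2 0.29 ± 0.08, adjusted p = 0.0172; 0.0558 without vehicle library 1, 0.0509 without vehicle library 3 and 0.0523 without venetoclax library 4), and its change was 0.44 and 0.08 within the libraries without and with Y-linked reads. Of 25 measured genes of the helper lineages 13 rose and 2 fell (median 0.43), with 12 rises in every fit; the count of falls was 1 without vehicle library 3 or venetoclax library 3 or venetoclax library 4. The rises included receptor genes for interleukin 18 (Il18r1, 0.75) and interferon gamma (Ifngr1, 0.76). Il23r, the receptor gene of interleukin 23, rose from a low level of 22.4, 27, 6.8 and 9.5 to 45.6, 57, 44.4 and 39.4 (log2 1.63 ± 0.36, adjusted p = 0.00779), and its venetoclax libraries lay above all vehicle libraries.

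Receptors that direct T cell migration changed with them. Of 24 measured chemokine and sphingosine phosphate receptor genes 11 rose and 2 fell (median 0.36), and the falls, S1pr1 and S1pr4, numbered 1 without vehicle library 3. Cxcr4, the receptor for the stromal chemokine CXCL12, was read at 2469, 4549, 2155 and 2303 in vehicle and 6859, 7374, 7762 and 5352 in venetoclax (log2 1.31 ± 0.19, adjusted p = 0.000596). The groups were apart, although vehicle library 2 stood above the other vehicle libraries, and the change was 1.21 and 0.69 within the libraries without and with Y-linked reads. Ccr4, a receptor of skin-homing T cells, went from 1859.9, 1624, 1364 and 1630.4 to 3152, 2705, 3173 and 3248 (log2 0.93 ± 0.08, adjusted p = 7.15e-05). Ccr6, the receptor for CCL20, rose by 0.70 (adjusted p = 0.000209), and Ccr8, a receptor of activated Treg in tissues, by 0.54 (adjusted p = 0.00866). Gpr15, a receptor for homing to the large intestine, rose by 0.87 and Gpr55, a lipid receptor, by 0.82. In these genes other than Ccr8 the venetoclax libraries lay above the vehicle libraries. Among 36 integrin and adhesion genes 9 rose and 3 fell (median 0.06). As in the receptor list above, the falls were near the share of all genes (8.81% lower) and the rises above it (10.7% higher). The integrin and adhesion falls numbered 1 without vehicle library 1 or venetoclax library 2 and 0 without vehicle library 3 or venetoclax library 1. The rises included Itgae, the CD103 chain that binds E-cadherin (0.73, adjusted p = 0.000337), Cd44, the hyaluronan receptor of memory cells (0.33), and Itgav, a chain of vitronectin receptors (0.42).

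Among the cytokine receptor genes Il7r rose. It encodes the interleukin 7 receptor alpha chain, kept low in most Treg and high in naive and memory T cells. Il7r, on chr15:9506159-9529941 of GRCm38.p6, was read at 5379, 6651, 6775 and 5629 in vehicle and 13639, 15339, 10674 and 12073 in venetoclax. The lowest venetoclax library lay far above the highest vehicle library, and the rise was 2.11-fold (log2 1.08 ± 0.10, adjusted p = 7.83e-05). The change was 1.03 within the libraries without Y-linked reads and 0.97 within those with them. Of 21 measured genes of common gamma chain signalling 8 rose and none fell (median 0.13). Without vehicle library 1 the count of falls was 1. Il9r, the interleukin 9 receptor gene, went from 210.2, 166, 171 and 220.4 to 302, 312, 311 and 374 (log2 0.76 ± 0.11, adjusted p = 0.000815), highest in venetoclax library 4. Cish, a feedback inhibitor induced by STAT5, was at 5203, 5009, 4503 and 4923 against 6956, 6911, 7039 and 6721 (log2 0.49 ± 0.05, adjusted p = 0.000102). Both genes were separate between the groups. Il2rg, the common gamma chain itself, changed by 0.09 ± 0.05 (adjusted p = 0.189), Stat5a by -0.08 ± 0.06 (adjusted p = 0.39) and Stat5b by -0.06 ± 0.05 (adjusted p = 0.454), none of which passed.

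**Figure D3:**
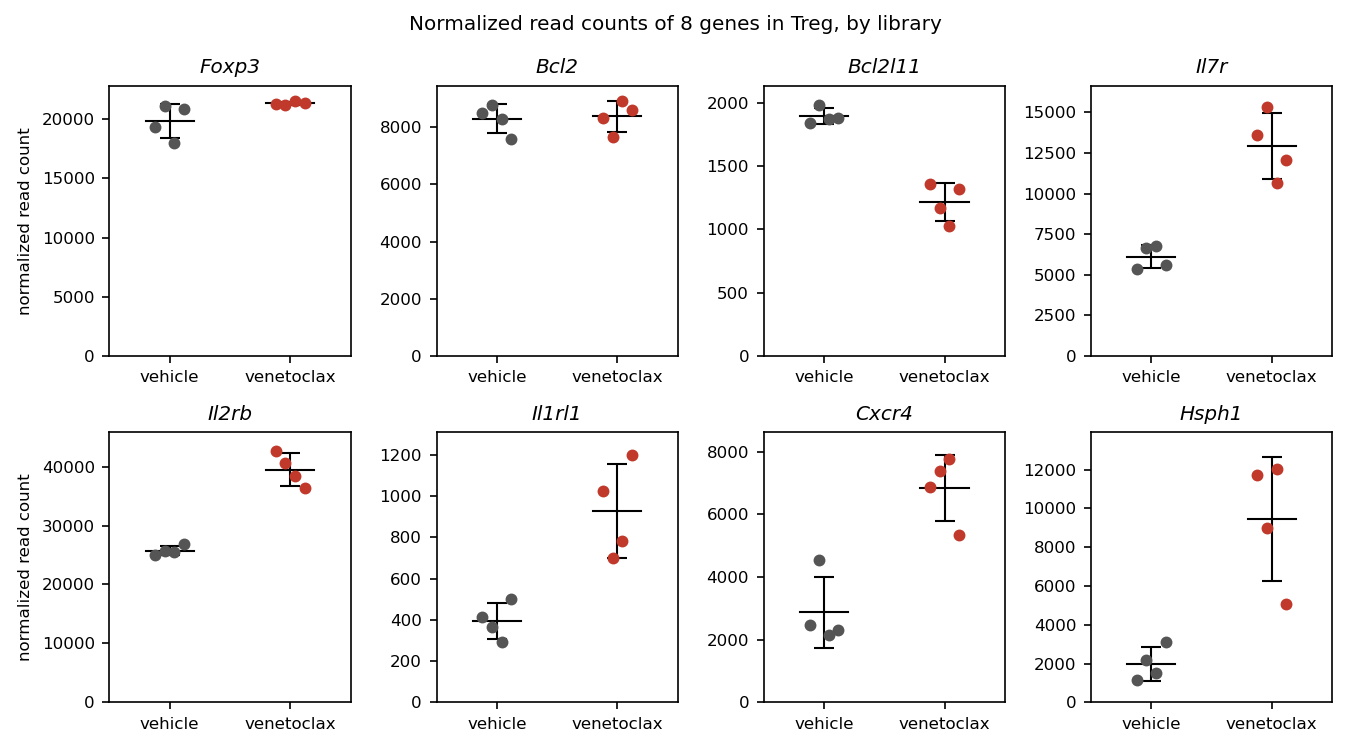
Normalized read counts of 8 genes in the 8 Treg libraries (vertical axes from 0), with 1 point per library, in the order 1 to 4 from left to right, and the mean ± SD of each group of 4. Il7r, Il2rb, Il1rl1, Cxcr4 and Hsph1 are higher in every venetoclax library and Bcl2l11 is lower, while the groups overlap for Bcl2.

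Among the survival genes that venetoclax bears on, the pro-apoptotic partner changed and its main binders did not pass. Bcl2l11, on chr2:128126038-128162547, encodes BIM, which BCL-2 holds in check. It was read at 1838, 1982, 1873 and 1878 in vehicle and 1356, 1167, 1024 and 1318 in venetoclax, a 1.56-fold fall (log2 -0.65 ± 0.08, adjusted p = 0.000224) without overlap. Bcl2, the gene of the drug's target, was at 8503, 8791, 8298 and 7598 against 8314, 7659, 8925 and 8607 (log2 0.01 ± 0.06, adjusted p = 0.899). Mcl1 was at 17547 ± 863 against 17648 ± 1184 (log2 0.01 ± 0.06, adjusted p = 0.953). Bcl2l1, which encodes BCL-XL, was at 1608 ± 156 against 1714 ± 64.6 (log2 0.10 ± 0.07, adjusted p = 0.337). The groups overlapped for all 3 of these genes. Of 7 measured anti-apoptotic genes 1 rose (median 0.14), near the share of all genes (10.7% higher). This was Bcl2a1b, which encodes a copy of A1 and went from 1277 ± 108 to 1525 ± 173 (log2 0.25 ± 0.08, adjusted p = 0.0409). Its adjusted p was 0.0504 without vehicle library 1, 0.0858 without vehicle library 2, 0.116 without vehicle library 3, 0.0746 without venetoclax library 2, 0.0511 without venetoclax library 3 and 0.114 without venetoclax library 4. Its near-identical copy Bcl2a1d changed by 0.16 ± 0.11 (adjusted p = 0.351); reads may be split between the copies, so their values are uncertain.

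Among the 8 measured pro-apoptotic genes 2 fell and 1 rose (median 0.06), where 8.81% of all genes were lower and 10.7% higher. Besides Bcl2l11, the pore-forming gene Bax fell from 1935 ± 58.8 to 1697 ± 88.5 (log2 -0.19 ± 0.05, adjusted p = 0.0212; 0.0596 without vehicle library 1, 0.0611 without venetoclax library 1 and 0.0655 without venetoclax library 4). Its relative Bak1 rose from 1136 ± 75.3 to 1350.4 ± 96.5 (log2 0.25 ± 0.07, adjusted p = 0.0189; 0.0596 without venetoclax library 4). The direct activator gene Bid changed by 0.07 ± 0.06 (adjusted p = 0.447) and Bbc3, which encodes the p53 target PUMA, by 0.05 ± 0.08 (adjusted p = 0.696). Of 22 genes of caspases and death receptors 3 rose (5 without vehicle library 2) and 2 fell (1 without vehicle library 1 or vehicle library 2 or vehicle library 3 or venetoclax library 1 or venetoclax library 2 or venetoclax library 3), close to the shares of all genes (10.7% and 8.81%). Casp8, the initiator caspase of death receptors, fell from 6202 ± 124 to 5377 ± 237 (log2 -0.21 ± 0.05, adjusted p = 0.00776). Tnfsf10, which encodes the death ligand TRAIL, rose from 2285 ± 86.7 to 3127 ± 255 (log2 0.45 ± 0.06, adjusted p = 0.000391), and Xiap, a caspase inhibitor gene, rose by 0.22 ± 0.05 (adjusted p = 0.00995). All 3 genes were separate between the groups.

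Immediate early genes held the largest falls among the genes named here. Of 40 genes listed as early targets of the T cell receptor 21 fell and 2 rose (median -0.39), 14 of the falls in every fit that leaves out 1 library. Fosb, on chr7:19302696-19310118, a subunit gene of the transcription factor AP-1, was read at 937, 4335, 3004 and 5889.9 in vehicle and 280.3, 777, 74.4 and 221 in venetoclax (log2 -3.57 ± 0.60, adjusted p = 0.00162). Klf4, an early zinc finger factor, was at 291, 1044, 639.7 and 2010.5 against 106, 290.0, 24.2 and 78.7 (log2 -3.16 ± 0.62, adjusted p = 0.00421). Fos was at 8936, 19948, 13517 and 24721 against 4076, 8255, 525 and 3846 (log2 -2.44 ± 0.61, adjusted p = 0.0137). In these 3 genes the groups did not overlap, but they varied several-fold among the libraries of 1 group: vehicle library 1 was the lowest and library 4 the highest vehicle library, and venetoclax library 2 was the highest and library 3 the lowest venetoclax library. The same order held for Junb, at 13885, 25770.5, 13889 and 35654 against 7482, 11745, 3114 and 6743 (log2 -1.65 ± 0.35, adjusted p = 0.0059). Jun changed by -1.76 ± 0.47 (adjusted p = 0.0197), Jund by -0.75 ± 0.11 (adjusted p = 0.000568) and Ier2, another early transcription factor gene, by -0.72 ± 0.12 (adjusted p = 0.00122). Nr4a1, a nuclear receptor gene induced by the T cell receptor, fell by 1.80-fold (log2 -0.85 ± 0.16, adjusted p = 0.00339), whereas Cd69, an early activation marker, did not pass (-0.26, adjusted p = 0.129; 0.0166 without vehicle library 1). The rises were Irf4 and Egr2, of which Egr2 was lost in part, so that the count of rises was 1 without vehicle library 1 or vehicle library 2 or vehicle library 3 or venetoclax library 1 or venetoclax library 4. Without venetoclax libraries 1 and 3, which leaves 2 venetoclax libraries, 5 falls were called. The list median was -0.44 and -0.46 within the libraries without and with Y-linked reads, and -0.64 in Tcon, where 12 of the 40 fell.

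Large falls outside the early transcription factors were those of Plk2, a stress-responsive kinase gene (199.5, 492, 388 and 888 against 77.9, 135, 50.2 and 89.3, log2 -2.36 ± 0.36, adjusted p = 0.00096), and Bambi, a decoy receptor gene of the TGF-beta family (-2.15, adjusted p = 0.00149). Ppp1r15a, which encodes the eIF2 phosphatase subunit GADD34, fell by 4.30-fold (log2 -2.10 ± 0.41, adjusted p = 0.00408). Rgs2, a regulator of G protein signalling, had a change of -1.45 ± 0.29 and the small GTPase gene Rhob one of -1.28 ± 0.26. Falls were also called for Rgcc (-1.25), a cell cycle regulator gene, Kcnh3 (-1.21), a potassium channel gene, Ntn4 (-1.20), a netrin gene, and Vipr1 (-1.19), the receptor of vasoactive intestinal peptide. For each of these 9 genes all venetoclax libraries lay below all vehicle libraries. Proximal signalling genes of the T cell receptor moved little. Of 26 measured genes 5 rose and 3 fell (median 0.03), the falls near the share of all genes (10.7% higher, 8.81% lower). The rises were those of the costimulatory receptor gene Cd28 (0.28), the inhibitory genes Ptpn22 (0.40), Sla (0.31) and Ubash3a (0.28), and Lcp2, an adaptor gene of positive signalling. The falls were Themis (-0.43), Prkcq (-0.19) and Rasgrp1 (-0.16), genes of positive signalling from the receptor, and the adjusted p of Rasgrp1 reached 0.131 when 1 library was left out.

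Cytosolic chaperones, which fold proteins and are induced by heat shock factors, were higher. Of 33 measured genes 17 rose and none fell (median 0.20), 12 of them in every fit that leaves out 1 library. Hsph1, on chr5:149616843-149636498, a nucleotide exchange factor gene of the HSP70 machine, had the largest rise of the genes named: 1135, 2174, 1527 and 3097 in vehicle and 11739, 8985, 12004 and 5092 in venetoclax, 4.85-fold (log2 2.28 ± 0.28, adjusted p = 0.000275). Dnaja1, an HSP40 gene, was at 7243, 9924, 8499.7 and 10138 against 24408, 22143, 28089 and 15944 (log2 1.32 ± 0.14, adjusted p = 0.000124). Stip1, which links HSP70 to HSP90, was at 2199.5, 2598, 2610.3 and 3033 against 7321, 6266, 6814 and 4459 (log2 1.24 ± 0.13, adjusted p = 0.000104). In all 3 genes venetoclax library 4 was the lowest of its group and still above every vehicle library. The HSP90 co-chaperone genes Chordc1 (1.00), Ahsa1 (0.77) and Fkbp4 (0.68) rose as well, as did Hsp90aa1 (0.83) and Hspa8 (0.62). The groups overlapped for Hsp90aa1, and its change was 0.29 and 0.88 within the libraries without and with Y-linked reads. Cirbp, an RNA-binding protein gene induced by cold and not a member of the list, fell from 3982, 3615, 4004 and 2742 to 1605, 2050.4, 1958 and 1770.5 (log2 -0.95 ± 0.11, adjusted p = 0.000167). The list median was 0.07 and 0.27 within the libraries without and with Y-linked reads. Without venetoclax libraries 1 and 3, 8 rises were called. In Tcon 12 of the 32 list genes measured there rose (median 0.24). The difference between Treg and Tcon passed for 0 of them, or 3 with the replicate code as a block.

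The 250 bases upstream of gene starts were read from a RefSeq promoter table for GRCm38.p6, which had an entry for 8942 of the 11067 genes. A gene with several listed starts was counted where any of them held a match. The core of the heat shock element, GAANNTTC, which reads the same on both strands, was present in 29.6% of the chaperone genes with an entry (8 of 27) and in 6.13% of all genes. It was found in 4 of the 14 chaperone genes that rose and in 4 of the 13 that did not pass. The windows of Dnaja1 and Fkbp4, the latter printed on the minus strand, are shown 5′ to 3′ with the match in capitals, as examples from the genes that rose.
Dnaja1, chr4:40722319-40722376: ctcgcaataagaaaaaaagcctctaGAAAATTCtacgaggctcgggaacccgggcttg
Fkbp4, chr6:128438775-128438832: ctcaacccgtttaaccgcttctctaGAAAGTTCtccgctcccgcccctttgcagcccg
Counted from the start in that table, the match began 124 bases before Dnaja1 and 151 before Fkbp4. A match of letters does not show binding.

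Few chaperones and sensors of the endoplasmic reticulum passed, at shares close to those of all genes (10.7% higher, 8.81% lower). Of 26 measured genes 4 rose and 2 fell (median 0.04; the falls were 1 without vehicle library 1 or vehicle library 3 or vehicle library 4 or venetoclax library 1 or venetoclax library 2 or venetoclax library 3 or venetoclax library 4). Ern1 and Atf6, the genes of the stress sensors IRE1 and ATF6, rose by 0.50 ± 0.09 (adjusted p = 0.00186) and 0.35 ± 0.07 (adjusted p = 0.00499). Hsp90b1, the chaperone GRP94, rose by 0.37, whereas Dnajb9, an HSP40 of the lumen, fell from 1109.5, 1763, 1586 and 2576 to 777, 895, 722 and 743 (log2 -1.10 ± 0.18, adjusted p = 0.00123). In the integrated stress response list 1 of 25 measured genes rose (2 without vehicle library 1 or venetoclax library 2 and 3 without vehicle library 4) and 3 fell, also near those shares. Its central factor gene Atf4 fell from 3047, 3469, 3221 and 3990.5 to 2199.8, 2729, 2204 and 2240.1 (log2 -0.55 ± 0.09, adjusted p = 0.00101). Ddit4, which encodes the mTORC1 inhibitor REDD1, rose from 5101, 6018, 4704 and 3043 to 9193, 12104, 10436 and 9508 (log2 1.16 ± 0.16, adjusted p = 0.000423). The groups were separate for all 6 of these genes.

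More interferon response genes fell than rose. Of 67 listed genes 49 were measured, of which 7 rose and 17 fell (median -0.14), 5 and 11 of them in every fit that leaves out 1 library. Listed genes that were not measured included Mx1, Mx2 and Oasl2, and the GTPase genes Igtp, Irgm1 and Iigp1. The rises were close to the share of all genes (10.7% higher), while the falls were above it (8.81% lower). The falls numbered 11 without vehicle library 1 or vehicle library 3. Those that fell included genes typical of type I interferon: Ifit3, an antiviral tetratricopeptide protein, was read at 1114, 541, 956 and 743 in vehicle and 553, 268, 366 and 343 in venetoclax (log2 -1.13 ± 0.22, adjusted p = 0.00355). The groups of Ifit3 overlapped, and its change was -1.43 and -0.51 within the libraries without and with Y-linked reads. Usp18, the enzyme that removes ISG15, was at 1020.0, 868, 1036 and 1049 against 685, 658, 661 and 602 (log2 -0.60 ± 0.07, adjusted p = 0.000224), without overlap. Irf7, which amplifies type I interferon, changed by -0.53 ± 0.11 (limma adjusted p = 0.00438), with some overlap. Its change was -0.74 and -0.14 within the libraries without and with Y-linked reads. Of the family of interferon-induced DNA-binding proteins, Ifi213 was at 894, 899.9, 891 and 889 against 659.5, 533, 626 and 563 (log2 -0.59 ± 0.07, adjusted p = 0.000226), and Ifi208 changed by -0.48 ± 0.06 (adjusted p = 0.000305); the venetoclax libraries of both lay below the vehicle libraries. Those that rose included GTPases typical of interferon gamma: Gbp3 was at 3542, 3614, 3091 and 3644 against 5265, 4639, 4594 and 4559 (log2 0.46 ± 0.06, adjusted p = 0.000518) and Gbp5 changed by 0.33 ± 0.05 (adjusted p = 0.00116). Members of these families are near copies of each other, and reads may be split between them. With a covariate for Y-linked reads 6 rose and 10 fell, and the list median was -0.18 and 0.01 within the libraries without and with Y-linked reads.

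The core of the interferon-stimulated response element (TTTC, any 2 bases, TTTC, sought on both strands) was present in the 250 upstream bases of 54.1% of the list (20 of 37 genes with an entry) and of 3.13% of all genes. It was found in 5 of the 6 genes with an entry that rose, in 8 of the 14 that fell and in 7 of the 17 that did not pass. The windows below show the element in a pair of genes that rose and a pair that fell, each on the strand of its gene and with the match in capitals, so that on the lower pair it appears as its reverse complement.
Gbp3, chr3:142559974-142560033: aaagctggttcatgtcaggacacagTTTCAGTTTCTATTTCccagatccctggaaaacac
Gbp5, chr3:142496744-142496803: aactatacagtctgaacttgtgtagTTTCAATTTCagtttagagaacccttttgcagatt
Ifi213, chr1:173599311-173599370: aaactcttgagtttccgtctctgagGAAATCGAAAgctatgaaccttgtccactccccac
Ifi208, chr1:173673582-173673641: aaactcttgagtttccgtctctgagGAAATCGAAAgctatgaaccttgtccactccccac
The Gbp3 window holds 2 overlapping matches, and those of Ifi213 (minus strand) and Ifi208 (plus strand) have the same letters throughout. The matches began 45, 165, 73 and 58 bases, in this order, before the start listed in the promoter table. That start can differ from the gene boundary in the RefSeq gene table, and the Ifi213 match lies within the boundaries given there.

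Genes of cytosolic ribosomal proteins were lower by a small amount. Of 70 measured genes 61 fell and none rose, with a median of -0.27. They took 9.89, 9.08, 10.7 and 9.25% of counts in the vehicle libraries and 7.55, 8.75, 8.49 and 7.93% in the venetoclax libraries, so the groups were apart by less than the range of either. Rps24 was read at 62710.4, 55913, 66882 and 57206 against 44194, 51801, 50143 and 46296 (log2 -0.33 ± 0.08, adjusted p = 0.00958), Rpl21 changed by -0.32 ± 0.07, Rplp2 by -0.30 ± 0.07 and Rps13 by -0.29 ± 0.06. The count of falls rested on the libraries: it was 27 without vehicle library 1, 23 without vehicle library 3, 16 without venetoclax library 1 and 22 without venetoclax library 4, 19 with Y-linked reads as a covariate and 0 without venetoclax libraries 1 and 3, and 16 genes were called in every fit that leaves out 1 library. The median was -0.36 within the libraries without Y-linked reads and -0.13 within those with them. Many of these genes have processed pseudogenes, and how the authors handled shared reads is unknown here.

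Of the 12 measured genes encoded in mitochondrial DNA 5 fell, all of them subunits of complex I (median -0.25; without vehicle library 2 the falls numbered 11). Their share of counts was 3.49 to 4.31% in vehicle and 3.08 to 3.53% in venetoclax, with overlap. mt-Nd1 was at 44535, 37586, 49529 and 40898 against 32504, 35141, 30158 and 35389 (log2 -0.37 ± 0.08, adjusted p = 0.00912), and changes of -0.38, -0.35 and -0.32 were called for mt-Nd6, mt-Nd3 and mt-Nd2. Of 69 nuclear genes of oxidative phosphorylation 10 fell and none rose (median -0.14), where 8.81% of all genes were lower. The falls numbered 3 without vehicle library 1, 23 without vehicle library 2, 2 without vehicle library 3 and 1 without venetoclax library 1. Cox7a2l, an assembly factor of respiratory supercomplexes, was the 1 called in every fit (-0.26 ± 0.06, limma adjusted p = 0.0111). Of 77 mitochondrial ribosomal protein genes 3 rose and 7 fell (falls 2 without vehicle library 1 or vehicle library 3 or venetoclax library 3, 12 without vehicle library 2, 11 without vehicle library 4 and 3 without venetoclax library 1), with Mrpl57 (-0.37) and Mrpl30 (-0.33) lower and Mrps6 (0.40) and Mrps25 (0.28) higher in every fit; both counts are near or below the shares of all genes (10.7% higher, 8.81% lower).

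**Figure D4:**
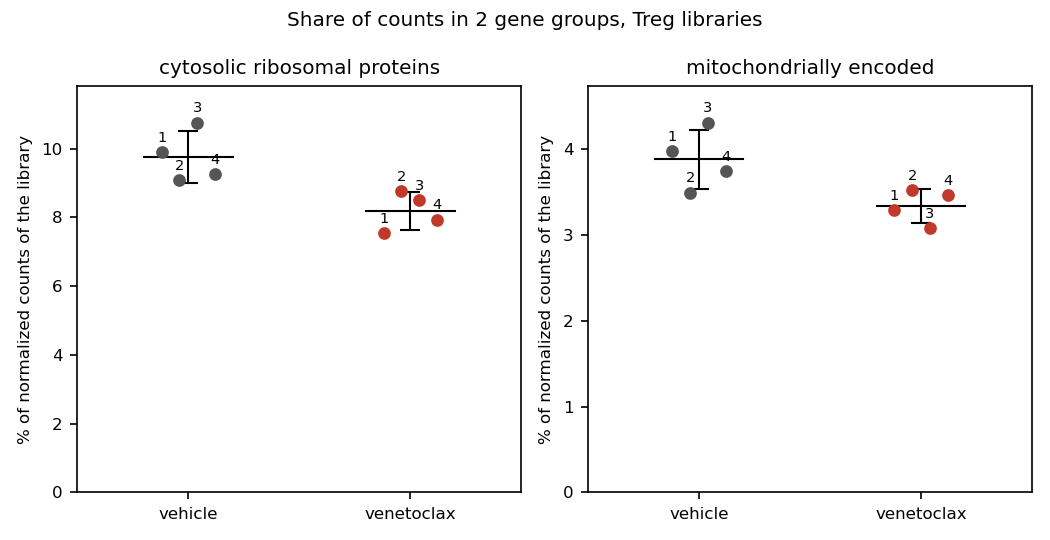
Share of the normalized counts of each Treg library taken by the 70 cytosolic ribosomal protein genes (left) and by the 12 mitochondrially encoded genes (right), with numbered points for libraries and the mean ± SD of each group of 4. The ribosomal share is 9.08 to 10.7% in vehicle and 7.55 to 8.75% in venetoclax, while the mitochondrial shares overlap.

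Other genes with large rises had varied roles. Adam8, a membrane metalloprotease gene, was at 274, 306, 166 and 180.5 against 502, 533, 525 and 491 (log2 1.19 ± 0.16, adjusted p = 0.000435). Lyn, a kinase gene of the SRC family, was at 69.1, 94.7, 50.6 and 80.8 against 151, 137, 161 and 202 (log2 1.15 ± 0.18, adjusted p = 0.00117). The groups were apart in both genes. The inhibitory receptor genes Lilrb4a (1.43 ± 0.17) and Lilr4b (1.19 ± 0.18), which are near copies of each other, rose from low levels of 108 ± 28.7 and 41.3 ± 8.66. Other rises were those of Frmd5, a FERM domain gene (66.2, 66.6, 42.8 and 70.3 against 204, 136, 182 and 256, log2 1.63 ± 0.20), Trf, which encodes the iron carrier transferrin (1.62 ± 0.33), Magi1, a scaffold gene (1.18 ± 0.21), and Arrdc4, an arrestin-related gene responsive to glucose (1.29 ± 0.21). All 6 were separate between the groups.

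Where Treg differed from Tcon was tested as an interaction over the 10774 genes in both tables. The libraries of Treg and Tcon with the same code deviated together (correlations of 0.461 to 0.766, each above that with any other code), so the code was also used as a replicate block. The venetoclax change differed for 140 genes (1.3%), 36 higher and 104 lower in Treg, and for 389 with the replicate block, 137 higher and 252 lower. Leaving out 1 code gave 43 to 149 genes; it was 56, 72 and 73 without vehicle 1, 2 and 4, and 44, 43 and 65 without venetoclax 1, 2 and 3. In Tcon alone 772 of 11171 genes passed (6.91%). Of the 2113 genes called in Treg and present in both tables, 54 also had a called difference.

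Genes with a higher venetoclax change in Treg than in Tcon included Il7r: its change was 1.08 in Treg and 0.17 in Tcon, a difference of 0.90 ± 0.16 (adjusted p = 0.0106; 0.000109 with the replicate block), lost without venetoclax 1 (adjusted p = 0.075). Rragd, a GTPase gene of nutrient sensing by mTORC1, changed by 0.51 in Treg and -0.30 in Tcon (difference 0.81 ± 0.14, adjusted p = 0.00945). Il18r1 changed by 0.75 and 0.09 (difference 0.66 ± 0.10, adjusted p = 0.00396). Neither lost its call when 1 code was left out. Ell2, an elongation factor gene (0.90 ± 0.21, adjusted p = 0.0443), Cd101, an inhibitory surface protein gene (0.79 ± 0.16, adjusted p = 0.0211), and Tnfrsf9, the costimulatory receptor 4-1BB (0.75 ± 0.15, adjusted p = 0.0214), passed too. These 3 calls rested on single codes. For Ell2 the adjusted p was over 0.05 without any 1 of the 8 codes (0.0599 without vehicle library 1 to 0.169 without venetoclax library 1). For Cd101 it was 0.0609 without vehicle library 1, 0.0721 without vehicle library 2, 0.0618 without vehicle library 4, 0.117 without venetoclax library 1, 0.054 without venetoclax library 2 and 0.0607 without venetoclax library 3. For Tnfrsf9 it was 0.0917 without vehicle library 1, 0.0617 without vehicle library 2, 0.104 without venetoclax library 1 and 0.059 without venetoclax library 2.

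Genes with a lower change in Treg than in Tcon included that of the drug's target. Bcl2 changed by 0.01 in Treg and rose by 1.13 in Tcon (difference -1.11 ± 0.18, adjusted p = 0.00487; 0.00301 with the replicate block). Il2ra changed by 0.02 and 0.98 (difference -0.96 ± 0.17, adjusted p = 0.00857; 0.0644 without venetoclax library 2). Cish rose in both, by 0.49 and 2.02 (difference -1.53 ± 0.23, adjusted p = 0.0033). Rcn1, a calcium-binding chaperone gene, fell by 1.29-fold in Treg and changed by 0.78 in Tcon (difference -1.15 ± 0.10, adjusted p = 2.35e-05), and Acvrl1, a receptor gene of the TGF-beta family, changed by -0.64 and 0.33 (difference -0.97 ± 0.13, adjusted p = 0.00131). Both were opposite in sign between the subsets. Neb, which encodes the muscle protein nebulin (-2.03 ± 0.44, adjusted p = 0.0298), and Fsd1l (-2.60 ± 0.51, adjusted p = 0.0181) rose more in Tcon. For Neb the adjusted p was 0.0506 without vehicle library 1, 0.104 without vehicle library 4, 0.144 without venetoclax library 1, 0.155 without venetoclax library 2 and 0.0607 without venetoclax library 3. For Fsd1l it was 0.0563 without vehicle library 1, 0.0551 without vehicle library 4, 0.0774 without venetoclax library 1, 0.0896 without venetoclax library 2 and 0.0613 without venetoclax library 3. Casp8 also moved in opposite directions, by -0.21 and 0.23 (difference -0.44 ± 0.07, adjusted p = 0.00405).

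Cell cycle genes rose mainly in Tcon. In Treg 3 of 44 rose and 1 fell (median 0.23), below the shares of all genes (10.7% higher, 8.81% lower). In Tcon 34 of 44 rose (median 1.10), and the difference passed for 14 genes, or 25 with the replicate block. Without venetoclax library 2, 6 rose in Treg; the count of falls was 2 without vehicle library 2 and 0 without vehicle library 3 or vehicle library 4 or venetoclax library 1 or venetoclax library 2 or venetoclax library 3, and with a covariate for Y-linked reads 9 rose and none fell. Top2a, a topoisomerase gene of dividing cells, changed by 0.41 ± 0.19 in Treg (adjusted p = 0.143; 0.0214 without venetoclax library 2) and by 2.04 in Tcon, a difference of -1.63 ± 0.29 (adjusted p = 0.00839). Mki67, which encodes the proliferation marker Ki-67, was at 1373, 1091, 810.1 and 1481 in vehicle Treg and 1764, 1048, 1606 and 2461 in venetoclax Treg. The groups overlapped (log2 0.51 ± 0.22, limma adjusted p = 0.119). The limma adjusted p of Mki67 in Treg was 0.0182 without venetoclax library 2. It was 0.0408 with a covariate for Y-linked reads (log2 0.73). With replicate numbers as blocks within Treg the limma adjusted p was 0.00672, but vehicle and venetoclax libraries of the same number were not taken as pairs. The change of Mki67 differed from that in Tcon by -1.48 ± 0.42 (limma interaction adjusted p = 0.113, or 0.0065 with the replicate block). Ccnd2, a G1 cyclin gene, rose in Treg from 13711, 12762, 14165 and 13192 to 22436, 17393, 22664 and 19403 (log2 0.60 ± 0.08, adjusted p = 0.000356) and by 1.14 in Tcon (adjusted p of the difference 0.0741; 0.0183 with the replicate block). Tyms, which makes thymidylate, rose by 0.47 ± 0.11 in Treg (adjusted p = 0.0106). Of the effector list 2 genes rose in Tcon (median 0.34), but the difference passed for 2 of 32, or 5 with the replicate block, so most of its members were not shown to differ between subsets.

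**Figure D5:**
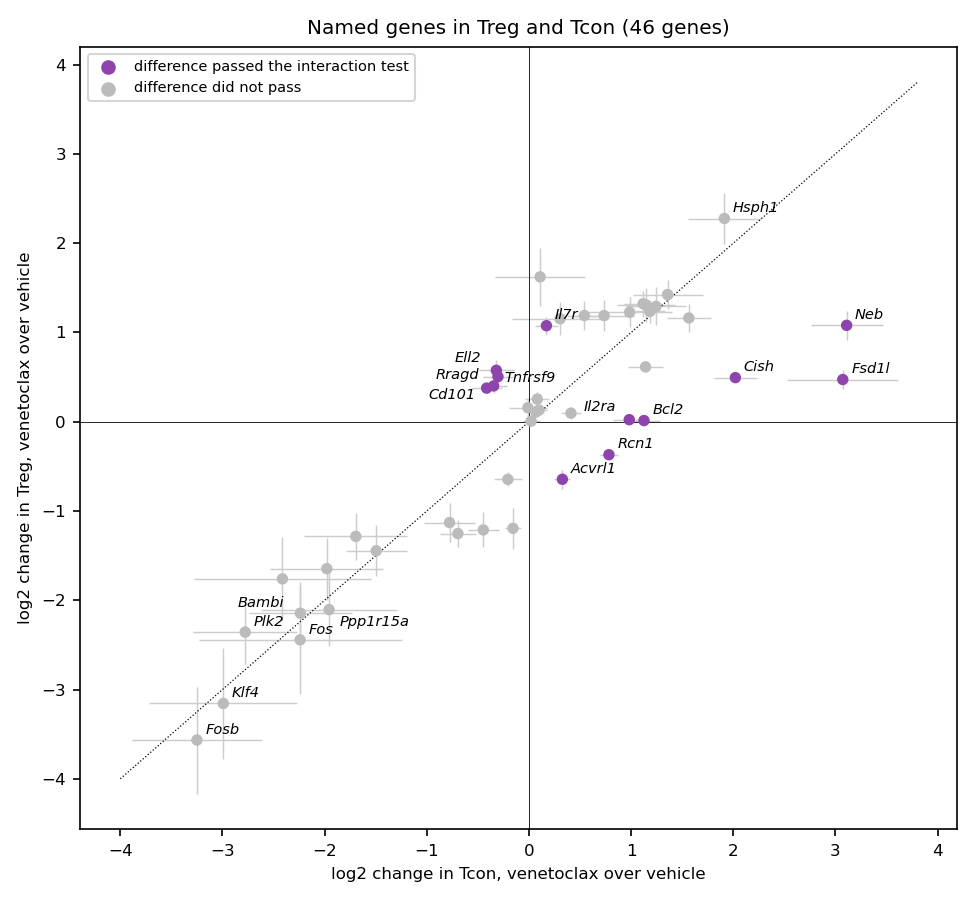
Log2 change of 46 named genes (from the largest rises and falls in Treg, the genes fixed by name and those with the largest called differences) in Tcon (horizontal) and Treg (vertical), with bars of ± 1 SE and a dotted line of equality. Differences passed for the 12 purple genes, among them Il7r, higher in Treg, and Bcl2 and Il2ra, higher in Tcon, while the large falls of Fosb, Klf4 and Fos lie near the line.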

How the data were processed

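RNA of sorted Treg and Tcon was sequenced. The submitters' processing notes name HISAT2, SAMtools and the build mm10; the counter, annotation, strand setting and gene filter are unknown here, so overlapping and antisense genes cannot be separated. The authors deposited a normalized signal per gene and library, in which each Treg value was a whole multiple, within 0.01, of a step per library (100% of values), so that reads could be recovered. The Treg table had 11110 lines, of which 43 were repeats; 18 symbols had been turned into dates and were restored. Groups follow the labels (vehicle, venetoclax; 4 libraries each).

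Differences in log2(normalized count + 1) were tested with limma 3.58.1 (mean-dependent prior) in R 4.3.3, with Benjamini-Hochberg adjustment over 11067 genes, and for the difference from Tcon over 16 libraries as an interaction. Alternatives were edgeR 4.0.16 and DESeq2 1.42.0 on recovered reads, other scalings, pseudocounts of 0.5 and 5, a mean of at least 10, no mean-dependent prior, a Y-linked covariate, a replicate block, and fits without each library. DESeq2 called 2409 genes and edgeR 2195. Same-coded Treg and Tcon libraries correlated at 0.461 to 0.766 (highest other 0.31). Scripts were tested on simulated data.

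Genes and lists were chosen with earlier results of these data known. Named genes were the 15 largest rises and 15 largest falls called in all 9 fits with a mean of at least 50, up to 4 members of each list by p, 5 in each direction by interaction, and 11 fixed genes (136 in all). A further 32 were chosen after their values were seen, among them Klrg1, Tigit, Icos, Prdm1, Ctla4, Il10, Ikzf2, Klf2, S1pr1, Bax, Bak1, Bid, Bbc3, Il2rg, Stat5a, Stat5b, S100a4, Hsp90aa1, Hspa8, Cirbp, Nr4a1, Cd69, Irf7, Gbp5, Fkbp4, Gpr15, Ccr8, Mki67, Top2a, Cd74 and Il23r. Some genes are not reported here.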

Additional observations from a re-analysis of the deposited data

Results flagged for a closer look

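In 17 of 168 named genes the venetoclax change in Treg differed from that in Tcon by the interaction test. Il7r (0.90), Ell2 (0.90), Rragd (0.81), Cd101 (0.79), Tnfrsf9 (0.75), Il18r1 (0.66) and Tnfsf10 (0.61) had a higher change in Treg. Fsd1l (-2.60), Neb (-2.03), Top2a (-1.63), Cish (-1.53), Rcn1 (-1.15), Bcl2 (-1.11), Acvrl1 (-0.97), Il2ra (-0.96), Casp8 (-0.44) and Ctsc (-0.36) had a lower one. Of those not described above, the adjusted p of Tnfsf10 was 0.0264 in the limma interaction fit (0.0833 without vehicle library 1, 0.0969 without vehicle library 2, 0.0971 without venetoclax library 1, 0.123 without venetoclax library 2 and 0.0538 without venetoclax library 3) and that of Ctsc was 0.049 (0.11 without vehicle library 1, 0.101 without vehicle library 2, 0.168 without vehicle library 4, 0.21 without venetoclax library 1, 0.149 without venetoclax library 2, 0.179 without venetoclax library 3 and 0.0555 without venetoclax library 4).

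In 17 of 336 groups of 4 libraries, 1 library stood apart from the other 3 by Dixon's test, which chance gives in about 1 in 20 groups. In vehicle Treg the values apart were 4549.3 for Cxcr4 and 867.6 for Usp18 (both in library 2), 42.8 for Frmd5, 54.1 for Lilr4b, 116.5 for Hist3h2ba, 4726.9 for Pdk1 and 2663.2 for Srebf1. In venetoclax Treg they were 2729.1 for Atf4, 5264.9 for Gbp3, 2453.3 for Il18r1, 374.5 for Il9r, 493.5 for Nsdhl, 3717.1 for Pdk1, 1896.7 for Pgam1, 493.5 for Sgk1, 6999.6 for Tnfrsf9 and 387.7 for Tnfsf14.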

How the results depend on the processing

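Genes called in Treg numbered 1510 to 2467 against 2164 in the settings that kept all 8 libraries, and 614 without venetoclax libraries 1 and 3, of which 609 were among the 2164. Leaving out 1 library gave 1327 to 2198. The limma replicate block gave 2467, although vehicle and venetoclax libraries of the same number did not all deviate together (correlations of -0.039, 0.414, 0.256 and 0.385, with vehicle library 1 closest to venetoclax library 4), so the numbers were not taken as pairs. Genes that differed between Treg and Tcon numbered 389 with the replicate block against 140, and 43 to 149 with 1 code left out. Omitting the libraries numbered 4, highest in erythroid markers, gave 1645 genes. This setting and the values within libraries with or without Y-linked reads were chosen after seeing the data. Changes that missed the threshold turned in sign for Bcl2 (-0.017 with upper quartile scaling, -0.042 without the libraries numbered 4, -0.029 without venetoclax libraries 1 and 3, -0.028 to 0.056 leaving out 1 library), Il2ra (-0.007 with upper quartile scaling, -0.004 to 0.055 leaving out 1 library) and Mcl1 (-0.055 with the Y-linked covariate, -0.023 with upper quartile scaling, -0.071 without venetoclax libraries 1 and 3, -0.022 to 0.048 leaving out 1 library). Of the values of named genes over all settings, 3489 were counted as kept, 91 lost the call, 9 gained one, 92 moved and 15 turned. Within libraries grouped by the presence of Y-linked reads no test was run. Called genes counted as moved there if they differed from the full fit by at least the vehicle SD. Genes that missed the threshold were counted as kept there whatever their sign. Signs that turned there include Bcl2 (-0.09 with these reads), Mcl1 (-0.09 without and -0.04 with them) and Bbc3 (-0.06 without them). Treatment and Y-linked status could be told apart only in part, with 1 vehicle library that had these reads and 1 venetoclax library that lacked them.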

Other observations

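Genes of T cell quiescence that FOXO factors are known to drive moved in both directions in venetoclax Treg. Of 26 measured genes 8 fell and 5 rose (median -0.08), where 8.81% of all genes were lower and 10.7% higher. In every fit that leaves out 1 library 7 of the falls and 4 of the rises were called. The list shares Il7r, Foxo1, Klf2 and S1pr1, among others, with lists described above. Sgk1, a kinase gene that acts on FOXO proteins, was read at 566, 773, 671 and 1114 in vehicle and 300.3, 494, 309 and 315 in venetoclax (log2 -1.12 ± 0.19, limma adjusted p = 0.00156), while Sesn3, an mTORC1 inhibitor gene, rose by 0.37 ± 0.06 (limma adjusted p = 0.00198).

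Over all genes 10.7% were higher and 8.81% lower, and genes of glycolysis passed at shares near these. Of 27 genes of glycolysis and its control 4 rose (2 without venetoclax library 3 or venetoclax library 4) and 2 fell (4 without vehicle library 2). Pdk1, the kinase that holds back pyruvate entry into mitochondria, fell from 5587, 5678, 5577 and 4727 to 3301, 3717, 3355 and 3309.7 (log2 -0.65 ± 0.06, limma adjusted p = 8.65e-05) and the glucose transporter gene Slc2a1 fell by 1.26-fold. Hif1a, the factor gene of the hypoxia response, rose by 0.48 ± 0.06 and Pgam1, a glycolytic mutase gene, by 0.24 ± 0.06. Of 26 genes of cholesterol and fatty acid synthesis 7 fell and 1 rose (none without vehicle library 1, 2 or 3 or venetoclax library 1 or 4), with median -0.08. The falls included Insig1 (-0.47), which retains the sterol sensor, the sterol enzyme gene Nsdhl (-0.41) and Srebf1 (-0.22), a lipogenic factor gene.

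In the NF-kB and TNF receptor list 9 of 40 genes rose and 4 fell (falls 1 without vehicle library 2 or venetoclax library 1 or venetoclax library 4 and 2 without venetoclax library 3). The falls in this list and in the p53 list below were near the share of all genes (8.81% lower). The rises included Tnfsf14, the ligand LIGHT (0.65 ± 0.10), Tnfrsf1b, the TNF receptor TNFR2 (0.37 ± 0.08), and Malt1, a protease gene of antigen receptor signalling (0.31 ± 0.06). Of 23 genes known as p53 targets 5 rose and 2 fell, and the falls, Bax and Plk2, numbered 1 without vehicle library 1 or venetoclax library 1 or venetoclax library 4 and 4 without vehicle library 3. Trp53inp1 (0.30), the polymerase gene Polk (0.31) and Sesn1 (0.23) rose. Of 48 lysosome and autophagy genes 4 rose (2 without vehicle library 1 or vehicle library 3 or venetoclax library 4 and 1 without venetoclax library 1) and 3 fell, below the shares of all genes (10.7% and 8.81%). The protease gene Ctsl fell by 1.73-fold (log2 -0.79 ± 0.12), Ctsc, another cathepsin gene, rose by 0.30 ± 0.05, and Npc2, a sterol carrier gene, changed by -0.28.

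Counts of chromatin and splicing genes were at or below the shares of all genes (10.7% higher, 8.81% lower). Of 71 chromatin regulator genes 6 rose (3 without vehicle library 3 or venetoclax library 1) and 3 fell (1 without venetoclax library 4), among them Brd3 (0.27), Kdm2b (0.28), Chd9 (0.26) and Hdac5 (-0.27). Of 81 splicing factor genes 5 rose (3 without vehicle library 1 or vehicle library 3 or venetoclax library 3 and 10 without vehicle library 4) and 7 fell (4 without vehicle library 4 or venetoclax library 1 or venetoclax library 2 or venetoclax library 3), with Srsf1 at 0.37 and the ribonucleoprotein genes Hnrnpd, Hnrnpdl and Hnrnpa0 at -0.33, -0.29 and -0.25. Among 7 GIMAP genes, GTPases of lymphocyte survival, Gimap7 rose (0.39) and Gimap6 fell (-0.28); without vehicle library 2 the rises numbered 3. Among 33 histone genes 5 rose (3 without vehicle library 1 or vehicle library 3 or venetoclax library 4 and 2 without venetoclax library 1 or venetoclax library 3) and 1 fell (2 without venetoclax library 1), led by Hist1h4m (1.20) and Hist1h4n (1.01), whose copies are alike and whose values are uncertain. Of 21 MHC class I genes the transactivator gene Nlrc5 alone rose (0.23; 2 genes without vehicle library 2 or venetoclax library 4).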
